A study of Mus musculus with 8 samples.

Results

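The genes described here encode glucose uptake, glycolysis, lactate handling and the pentose phosphate pathway in activated mouse CD8 T cells. They are 34 genes out of 35072 in the deposited table, taken by symbol from a fixed list: 2 glucose transporters, 3 hexokinases, 7 genes of upper glycolysis, 3 bifunctional fructose-2,6-bisphosphate enzymes, 8 genes of lower glycolysis, 4 genes of lactate handling, and 3 oxidative and 4 non-oxidative genes of the pentose phosphate pathway. Each symbol matched 1 row, and 33 of the 34 genes passed the filter on low counts. Hk3, a hexokinase best known from myeloid cells, did not pass: its estimated counts were 17, 3, 12 and 7 in controls 1 to 4 and 5, 7, 4 and 10 in formate libraries 1 to 4.

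Glucose enters T cells through facilitative transporters, is trapped by hexokinase and is split and oxidised to pyruvate, which yields ATP and NADH. Activated T cells send much of the pyruvate to lactate through lactate dehydrogenase and export it through monocarboxylate transporters, a state known as aerobic glycolysis. The pentose phosphate pathway branches off at glucose-6-phosphate. Its oxidative arm makes NADPH and ribose-5-phosphate, and its non-oxidative arm interconverts sugars with intermediates of glycolysis.

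RNA came from wildtype mouse CD8 T cells of spleen and lymph nodes. Naive cells were activated for 18 h through CD3 and CD28 in the presence of interleukin-12, after which they were given either PBS (control) or 2 mM formate for 24 h; all 8 libraries share the activation and the interleukin-12. Each group had 4 libraries. No label ties a library to an animal or culture of its own; the spread between libraries, on which all p-values rest, may therefore be technical.

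Library totals ranged from 29361986 to 41393093 estimated counts. The sample titles carry codes, and controls 1, 2, 3 and 4 have codes 10, 13, 1 and 7, while formate libraries 1, 2, 3 and 4 have the neighbouring codes 11, 14, 2 and 8. The first principal component held 51.2% of the variance and set the libraries with codes 10 to 14 (the high-code libraries) apart from those with codes 1 to 8 (the low-code libraries). CD8 T cell genes (Cd3d, Cd3e, Cd3g, Cd8a, Cd8b1, Cd2 and Lck) summed to 1928 to 2561 CPM (counts scaled by TMM-normalised library size) in controls and 1983 to 2346 with formate. The erythroid and platelet genes were at or near 0. CD4 T cell markers summed to 9.76 to 13.73 CPM in controls and 8.522 to 14.63 CPM with formate, higher in 1 of 4 pairs. Myeloid markers summed to 3.056 to 5.432 and 3.871 to 6.292 CPM, higher in 3 of 4 pairs. Stromal markers summed to 0.9701 to 1.52 and 0.726 to 2.339 CPM, higher in 2 of 4 pairs. Of the 3 NK genes Ncr1 and Klrb1c were at or near 0, while Klre1 was at 0.776 to 1.623 CPM in controls and 1.04 to 2.09 CPM with formate, higher in 4 of 4 pairs (paired edgeR adjusted p = 0.159). The summed level of 5 B cell markers was 165.8 to 176.8 CPM in controls and 151.1 to 169.7 with formate, lower in 4 of 4 neighbouring pairs. Mitochondrially encoded genes took 0.4135% to 0.5662% of counts in controls and 0.5603% to 0.9062% with formate, higher in 4 of 4 pairs (exact permutation p = 0.0571, 0.457 adjusted over 8 measures). The part of these measures in the results below was not tested.

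Transcript levels differed widely between the members. On a scale of CPM per kilobase of transcript, which allows levels of different genes to be compared, Gapdh stood highest in controls (3691 ± 1006, SD, n = 4), followed by Ldha (2441 ± 743.8), Eno1 (1736 ± 542.7), Pkm (1684 ± 512.2), Aldoa (1467 ± 556.6), Tpi1 (1130 ± 488.7), Pgk1 (1127 ± 582.3) and Pgam1 (725.5 ± 192.6). Among these 8, each differed from the next by less than the larger of the 2 SDs, except Gapdh from Ldha. These SDs include the difference between high-code and low-code libraries, which these genes share. Within each library each of the 8 stood above the next, except that Eno1 and Pkm, and Tpi1 and Pgk1, changed order. In formate library 1 Pgk1 (1609) also stood just above Aldoa (1605). Gpi1 followed at 316.6 ± 102.2, below Pgam1 by more than either SD. Tkt was the highest gene of the pentose phosphate pathway, at 232.8 ± 14.05. Together the 34 genes held 3.738%, 3.032%, 1.85% and 2.206% of all normalised counts in controls 1 to 4, and 3.072%, 2.551%, 1.763% and 2.064% in formate libraries 1 to 4. The share was lower with formate than in the neighbouring control in every pair, but the groups overlapped, because the 2 low-code controls lay below both high-code formate libraries.

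Without a pairing term no member passed in the edgeR test: of 33 tested, 0 rose and 0 fell at an adjusted p under 0.05, where 0.00752% of all 13299 tested genes rose and 0% fell. At an unadjusted p under 0.05 there were 4 members (4.77% of all genes), and DESeq2 called 0. With neighbouring codes as a replicate block (the paired fit) 16 of the 33 fell, 1 rose and 16 did not pass, where 7.52% of all tested genes fell and 5.35% rose. Of all genes called in that fit 41.6% rose; the share was 66% when scaled by library size only, 53.1% with upper-quartile scaling, 31.3% with DESeq2 and 31.1% with GC offsets. The members' median log2 change in the paired fit was -0.17 against -0.003 for all tested genes, and 29 of the 33 estimates were below 0, as were 50.8% over all genes. The same 16 genes were lower with formate in 4 of 4 pairs, which held for 19.5% of all genes. No label states that neighbouring codes belong together, so every call below rests on a pairing read from the titles and from how the libraries deviate together. In bulk RNA, less of a transcript per cell and fewer cells that carry it cannot be told apart.

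**Figure D1:**
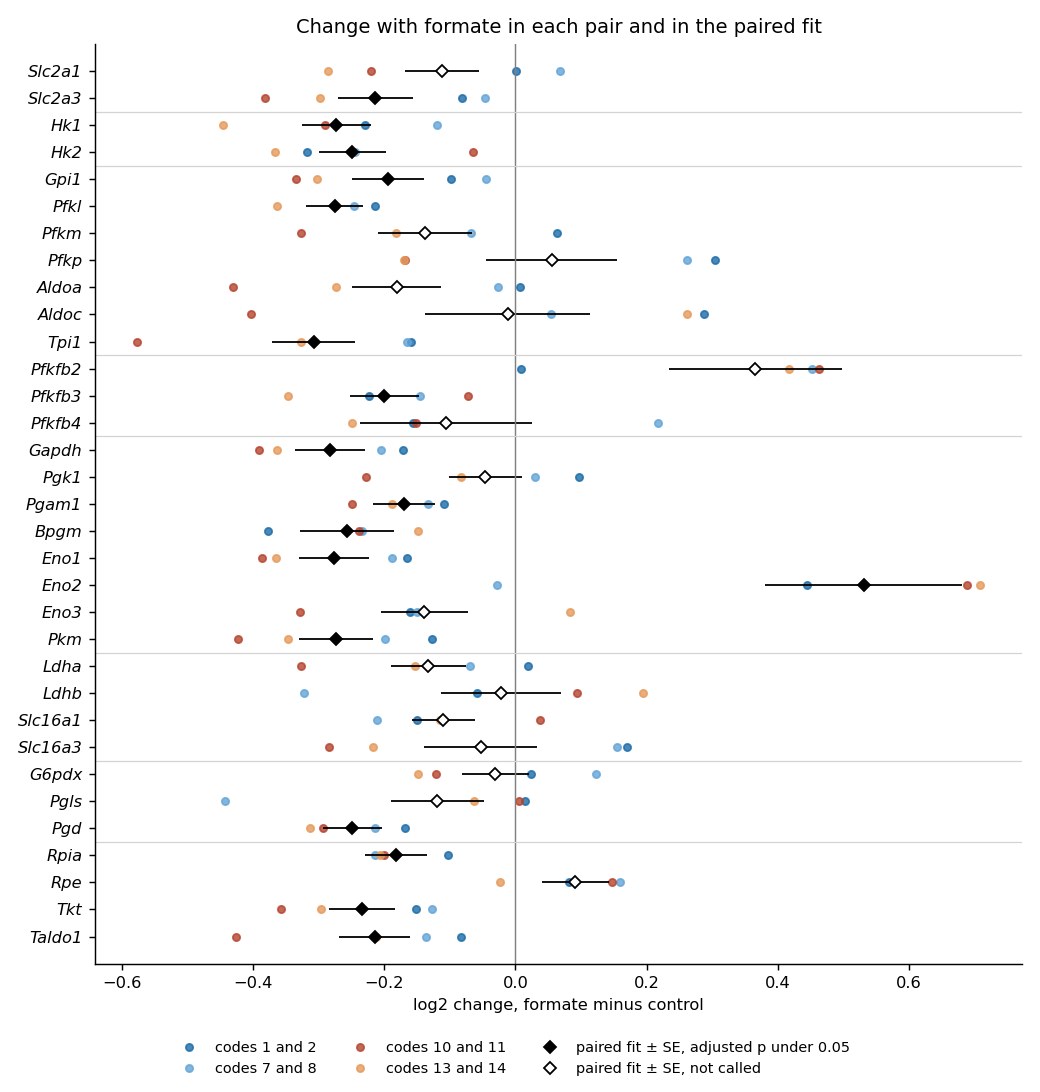
Log2 change with formate (horizontal axis) for the 33 tested genes, ordered by their place in the pathway with grey lines between roles. Coloured points are the 4 neighbouring pairs of libraries, and diamonds are the paired edgeR estimate with its standard error, filled where the adjusted p was under 0.05: the 16 filled diamonds left of 0 have all 4 points left of 0, and Eno2 is the 1 filled diamond to the right.

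The decreases of Hk1, Pfkl, Gapdh, Eno1, Pkm and Pgd passed in all 11 versions of the paired fit, which changed the scaling, the filter or the tool, removed the trend with GC content, or left out 1 pair. The count of members that fell was 7 without codes 1 and 2, 12 without codes 7 and 8, 12 without codes 10 and 11, 6 without codes 13 and 14, and 11 when only library size was used for scaling. All 17 called genes kept their direction in all 11 versions.

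Of the 2 transporter genes 1 passed; whether their changes differ was not tested. Slc2a1 (GLUT1, the main glucose transporter of activated T cells; ENSMUSG00000028645) was at 354.9, 306.9, 132.4 and 172.1 CPM in controls 1 to 4 and at 304.4, 251.6, 132.5 and 180.4 CPM in formate libraries 1 to 4. It was lower in the high-code pairs and level or higher in the low-code pairs, and did not pass (log2 change -0.11, SE 0.06, paired edgeR adjusted p = 0.213). Slc2a3 (GLUT3, a transporter of high affinity) was at 451.6, 179.5, 42.78 and 50.69 CPM in controls and at 346.3, 145.9, 40.41 and 49.07 CPM with formate. It fell by 0.21 in the paired fit (SE 0.06, edgeR adjusted p = 0.0233). The spread between controls was far larger than this change. Leaving out any pair other than codes 7 and 8 ended the call (adjusted p up to 0.133), and unpaired the estimate turned positive without control 1 alone (0.69).

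Both hexokinase genes that passed the filter fell. Hk1, the widely expressed hexokinase (ENSMUSG00000037012, chromosome 10 from 62268855 to 62379908, GRCm38), was at 361.6, 265.7, 199.7 and 180.2 CPM in controls 1 to 4 and at 295.4, 194.9, 170.3 and 165.9 CPM in formate libraries 1 to 4 (log2 change -0.27, SE 0.05, paired edgeR adjusted p = 0.00501). Hk2, the inducible hexokinase, was at 261.7, 276.7, 298.8 and 278.1 CPM in controls and at 250.2, 214.4, 239.5 and 234.7 CPM with formate (-0.25, SE 0.05, paired edgeR adjusted p = 0.00713). Every formate library lay below every control for Hk2, whereas for Hk1 the groups overlapped. Such separation with formate lower held for 1.85% of all tested genes and, among the members, for Hk2, Bpgm and Tkt; with formate higher it held for 2.44% of all genes and for 0 members. Leaving out codes 1 and 2 ended the Hk2 call, as did leaving out 13 and 14 (adjusted p up to 0.0855).

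Of 7 genes of upper glycolysis, 3 fell and 4 did not pass. Tpi1, the triosephosphate isomerase gene, had the largest decrease of any member in the paired edgeR fit with all pairs (-0.22 without codes 10 and 11): 2058, 1605, 732.3 and 1047 CPM in controls 1 to 4 became 1379, 1279, 655.3 and 933.3 CPM in formate libraries 1 to 4 (log2 change -0.31, SE 0.06, paired edgeR adjusted p = 0.00981). Without codes 13 and 14 its adjusted p was 0.102. Pfkl, the liver-type phosphofructokinase gene, was at 371.2, 360.2, 216.2 and 276.9 CPM in controls and at 306.5, 279.9, 186.2 and 233.3 CPM with formate. Its change was -0.28 (SE 0.04, paired edgeR adjusted p = 0.00259) and was of similar size in each pair, from -0.22 to -0.36. Gpi1, which makes fructose-6-phosphate, was at 1263, 1042, 618.9 and 727.4 CPM in controls and at 1002, 845.6, 578.2 and 705.2 CPM with formate (-0.20, SE 0.06, paired edgeR adjusted p = 0.029). Its call ended with library-size scaling and without any pair other than codes 7 and 8.

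The other phosphofructokinase genes and the aldolases did not pass. Pfkp, the platelet-type phosphofructokinase and the highest of the 3 per kilobase, was at 713.4, 563.6, 250.5 and 300.3 CPM in controls and at 634.7, 500.9, 309.7 and 360 CPM with formate (log2 change 0.06, SE 0.10, paired edgeR adjusted p = 0.775). It was higher with formate in both low-code pairs (0.31 and 0.26) and lower in both high-code pairs (-0.17 and -0.17). Pfkp made up 53.74% and 52.24% of phosphofructokinase transcripts per kilobase in the low-code controls and 62.1% and 60.64% in their formate neighbours, against 64.95% and 60.93% in the high-code controls and 66.73% and 63.81% in theirs. Pfkm, the muscle-type gene, had -0.14. Aldoa, the main aldolase gene of these cells, was at 3270, 2485, 1374 and 1737 CPM in controls and at 2425, 2056, 1381 and 1705 CPM with formate, lower in the high-code pairs and nearly level in the low-code pairs (-0.18, SE 0.07, paired edgeR adjusted p = 0.099). With no filter on low counts the paired fit called Aldoa lower. Aldoc, a second aldolase, had -0.01.

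The bifunctional PFKFB enzymes set the level of fructose-2,6-bisphosphate, the allosteric activator of phosphofructokinase. Of these 3 genes Pfkfb3 fell (72.27, 85, 66.05 and 66.29 CPM in controls 1 to 4, and 68.66, 66.72, 56.53 and 59.87 CPM in formate libraries 1 to 4; log2 change -0.20, SE 0.05, paired edgeR adjusted p = 0.0227), and its call ended in 4 of the 11 versions. Pfkfb2 was higher with formate in 4 of 4 pairs, at 3.962 ± 1.007 and 5.048 ± 0.5542 CPM (SD, n = 4), and did not pass (0.37, SE 0.13, adjusted p = 0.0791). Pfkfb4 did not pass either (-0.11, adjusted p = 0.642).

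Lower glycolysis had 5 genes that fell, 1 that rose and 2 that did not pass. Gapdh, the glyceraldehyde-3-phosphate dehydrogenase gene (ENSMUSG00000057666, chromosome 6 from 125161715 to 125166467), was at 6307, 5100, 3421 and 3966 CPM in controls 1 to 4 and at 4811, 3963, 3038 and 3440 CPM in formate libraries 1 to 4. The paired log2 change was -0.28 (SE 0.05), with pairs from -0.17 to -0.39. Eno1, the main enolase gene (ENSMUSG00000063524, chromosome 4 from 150236721 to 150248879), was at 4703, 3810, 2302 and 2820 CPM in controls and at 3595, 2958, 2051 and 2473 CPM with formate. Pkm, the pyruvate kinase gene, whose 2 splice forms these gene-level counts do not separate, was at 5223, 4098, 2645 and 3099 CPM in controls and at 3895, 3222, 2420 and 2699 CPM with formate (log2 change -0.27, SE 0.06, paired edgeR adjusted p = 0.00686). For Gapdh, Eno1 and Pkm each formate library lay below its neighbouring control, and the groups overlapped because the code sets lay so far apart.

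Some of these genes resemble annotated pseudogenes, so their reads may in part be assigned to such copies. Shared reads were not measured. Annotated pseudogenes with at least 90% identity to a member's transcript over at least 50% of their own length numbered 200 in the table, of which 170 resembled Gapdh. Those 170 took between 19.4% and 22% of the summed counts of Gapdh and its copies, and 2 copies of Pgk1 took between 18.9% and 24.1%. With the copies added, the log2 change of Gapdh in the pairs of codes 1, 7, 10 and 13 was -0.176, -0.180, -0.368 and -0.365, against -0.171, -0.205, -0.391 and -0.364 for the gene alone. For Pgk1 the same sum gave 0.092, 0.051, -0.267 and -0.050. The copies of Pgam1 took at most 4.79%, and those of Eno1, Pkm, Ldha, Aldoa, Tpi1 and Gpi1 less than that.

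Of the remaining genes of this stretch, Pgam1 (phosphoglycerate mutase) was at 1685, 1432, 902.7 and 1132 CPM in controls 1 to 4 and at 1417, 1256, 837.2 and 1032 CPM in formate libraries 1 to 4. It fell by 0.17 (SE 0.05, paired edgeR adjusted p = 0.0277), a call that ended in 5 of the 11 versions. Bpgm, which makes 2,3-bisphosphoglycerate and is best known from red cells, had 16.68, 17.24, 17.54 and 18.14 CPM in controls 1 to 4 and 14.06, 15.51, 13.39 and 15.35 CPM in formate libraries 1 to 4. It varied little between code sets, its groups did not overlap, and its change was -0.26 (SE 0.07, paired edgeR adjusted p = 0.028); DESeq2 and 5 other versions lost the call. Erythroid genes such as Hba-a1 were at or near 0 in these libraries. Pgk1, phosphoglycerate kinase, had -0.05 (SE 0.06) and Eno3, the muscle enolase, -0.14 (SE 0.07), and neither passed.

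Eno2, the neuronal enolase gene, was the 1 member that rose. It was at 4.583, 3.128, 2.676 and 2.938 CPM in controls 1 to 4 and at 7.696, 5.43, 3.822 and 2.871 CPM in formate libraries 1 to 4, so that 3 of 4 pairs were higher and codes 7 and 8 were level (log2 change 0.53, SE 0.15, paired edgeR adjusted p = 0.0303). DESeq2 did not call it, nor did edgeR without codes 1 and 2, without 10 and 11 or without 13 and 14 (adjusted p up to 0.173). Eno2 supplied little of the enolase transcripts, 0.08092% ± 0.01132 per kilobase in controls and 0.1414% ± 0.03382 with formate, while Eno1 held between 97.96% and 98.65% in every library. Of the 34 genes 8 lie on chromosome 6; Eno2 and Tpi1, which moved in opposite directions, lie 40.9 kb apart there.

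Of the 4 lactate genes 0 passed in the paired edgeR fit. Ldha, whose enzyme turns pyruvate into lactate, was at 5278, 4335, 2575 and 3314 CPM in controls 1 to 4 and at 4206, 3899, 2610 and 3157 CPM in formate libraries 1 to 4 (log2 change -0.13, SE 0.06, paired edgeR adjusted p = 0.139). It passed in the paired DESeq2 fit and with no filter on low counts. Ldhb, the other subunit gene, made up at most 0.6893% of the 2 per kilobase and had -0.02. Slc16a1 (MCT1) had -0.11 (SE 0.05, adjusted p = 0.143) and passed only with GC offsets and without codes 10 and 11. Slc16a3 (MCT4, the transporter linked to lactate export) was at 483.7, 346.2, 53.11 and 113.5 CPM in controls and at 396.9, 297.8, 59.83 and 126.5 CPM with formate, lower in the high-code pairs and higher in the low-code pairs (-0.05, SE 0.09, adjusted p = 0.74).

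In the oxidative arm of the pentose phosphate pathway Pgd fell and the other two did not pass. Pgd, the 6-phosphogluconate dehydrogenase gene (ENSMUSG00000028961, chromosome 4 from 149149991 to 149166771), was at 240.6, 255.2, 197 and 236.1 CPM in controls 1 to 4 and at 196.1, 205.2, 175.3 and 203.3 CPM in formate libraries 1 to 4. Its change was -0.25 (SE 0.04, paired edgeR adjusted p = 0.00429), with pairs from -0.17 to -0.31. G6pdx, the gene of the entry enzyme glucose-6-phosphate dehydrogenase, was at 138.3 ± 3.313 and 135.6 ± 8.883 CPM (SD, n = 4; -0.03, SE 0.05). Pgls, the lactonase between them, had -0.12 (SE 0.07), most of it from codes 7 and 8.

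In the non-oxidative arm 3 of 4 genes fell. Tkt, transketolase, was at 811.5, 756.4, 709.8 and 723.5 CPM in controls 1 to 4 and at 633.1, 615.7, 639.4 and 661.8 CPM in formate libraries 1 to 4, without overlap (log2 change -0.23, SE 0.05, paired edgeR adjusted p = 0.00885). Taldo1, transaldolase, was at 182.4, 155.9, 134.8 and 149.6 CPM in controls and at 135.7, 134.5, 127.2 and 136.2 CPM with formate (-0.22, SE 0.05, paired edgeR adjusted p = 0.0182). Rpia, the ribose-5-phosphate isomerase gene, was at 67.89, 73.31, 70.81 and 81.19 CPM in controls and at 59.04, 63.45, 65.91 and 69.9 CPM with formate (-0.18, SE 0.05, paired edgeR adjusted p = 0.0214). Groups overlapped for Rpia and for Taldo1. Rpe, the epimerase gene, had 0.09 (SE 0.05), and with GC offsets -0.08; it did not pass. All 3 calls ended without codes 1 and 2 and without 13 and 14 (adjusted p up to 0.0891); that of Taldo1 ended without 10 and 11 too, and that of Rpia without 7 and 8 and with library-size scaling.

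**Figure D2:**
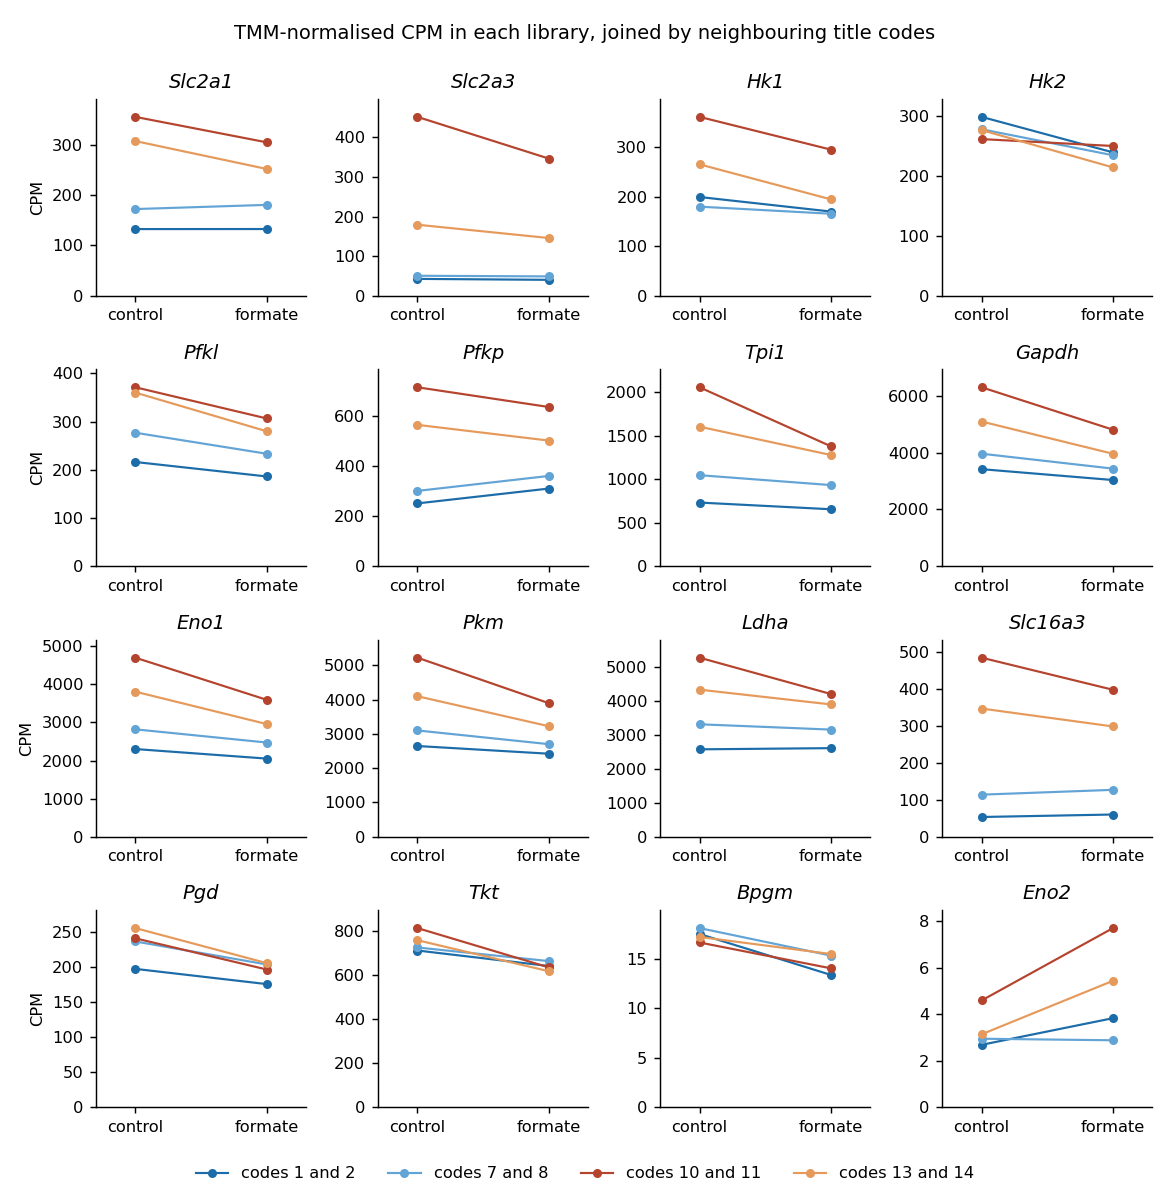
TMM-normalised CPM (vertical axes, from 0) of 16 of the genes in each control and formate library, with lines joining neighbouring title codes. For Gapdh, Eno1 and Pkm all 4 lines slope downward, more steeply in the high-code pairs (red, orange) than in the low-code pairs (blue). Slc2a1, Pfkp and Slc16a3 slope down in the high-code pairs and are level or slope up in the low-code pairs.

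The difference between code sets was larger than that between treatments for many members. Among controls, the 33 genes had a median log2 difference of 0.62 between codes 10 and 13 and codes 1 and 7, against 0.016 for all tested genes. Aldoc was at 79.85 and 23.48 CPM in the high-code controls and at 1.378 and 4.019 CPM in the low-code controls, a ratio of means of 19.15. The ratio was 6.75 for Slc2a3, 4.98 for Slc16a3, 2.3 for Pgk1 and 2.06 for Tpi1. In 8 of the 33 genes both high-code controls were above both low-code controls by more than 2-fold in mean, as in 2.88% of all tested genes: these 5 together with Slc2a1, Pfkp and Pfkfb4. The pentose phosphate genes, Hk2 and Bpgm were near level between code sets, and Slc16a1 and Ldhb were lower in the high-code controls (-0.30 and -0.39). With 2 controls per set and no label for what the codes stand for, these values are given without a test.

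**Figure D3:**
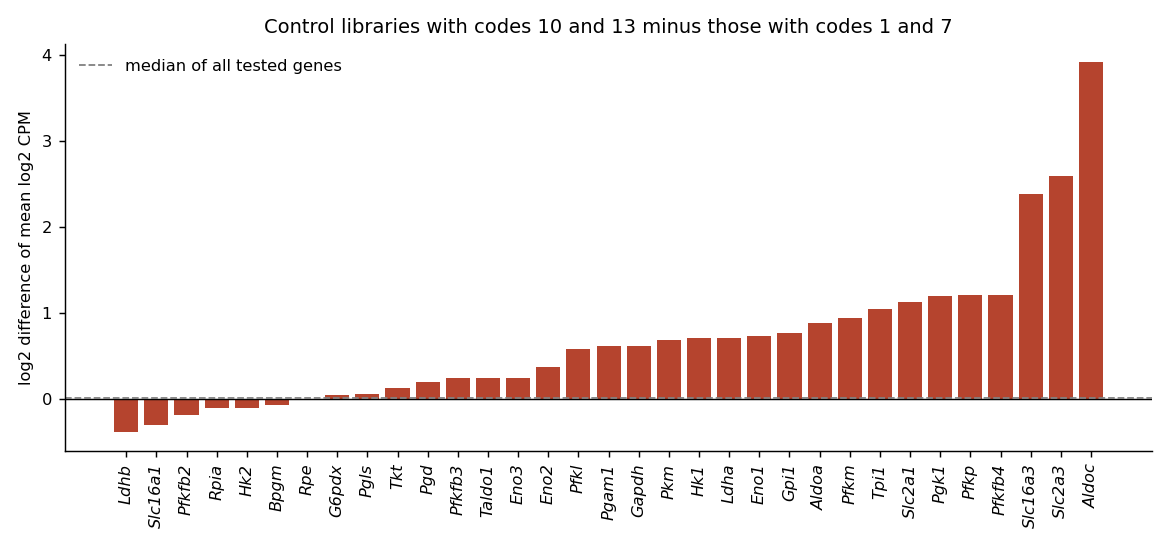
Difference in mean log2 CPM (vertical axis) between the controls with codes 10 and 13 and those with codes 1 and 7, for each of the 33 tested genes. Bars run from -0.39 for Ldhb to 3.91 for Aldoc, and the dashed line marks the median of all tested genes, 0.016.

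Isozyme and transporter composition followed the code sets too. Slc2a1 made up 48.83% and 67.5% of Slc2a1 and Slc2a3 transcripts per kilobase in controls 1 and 2, but 78.98% and 80.48% in controls 3 and 4. Hk2 made up 39.5% and 48.43% of Hk1 and Hk2 in controls 1 and 2, against 57.44% and 58.2% in controls 3 and 4. Slc16a3 made up 81.66% and 74.52% of the 2 monocarboxylate transporter genes in controls 1 and 2, and 27.37% and 45.14% in controls 3 and 4. In formate libraries 1 to 4 the share was 51.63%, 67.68%, 79.92% and 81.7% for Slc2a1, and 78.07%, 73.15%, 32.02% and 51.48% for Slc16a3.

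**Figure D4:**
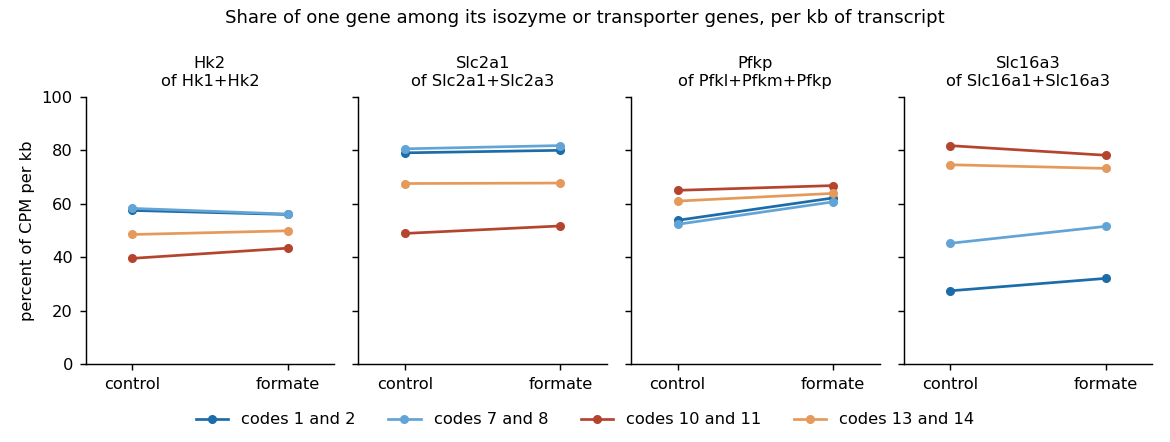
Share of Hk2, Slc2a1, Pfkp and Slc16a3 among the named genes of the same step, in percent of summed CPM per kilobase (vertical axis, 0 to 100), in each control and formate library joined by neighbouring codes. Among controls the code sets stand apart for all 4 shares, and the Pfkp share of the low-code pairs goes from 53.74% and 52.24% to 62.1% and 60.64%.

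Median changes with formate lay further below 0 in the high-code pairs. In the low-code pairs the median log2 change over the 33 genes was -0.098 (codes 1 and 2) and -0.128 (7 and 8), where all genes had 0.009 and 0.002. In the high-code pairs it was -0.276 (codes 10 and 11) and -0.212 (13 and 14), where all genes had -0.020 and -0.024. An interaction of formate with code set passed for 0 of 33 members (edgeR, smallest adjusted p = 0.0851, Pfkp; 0.0677% of all genes passed), so a difference between code sets was not shown after correction. At an unadjusted p under 0.05 there were 14 members, against 5.06% of all genes, and in all 14 the change was lower in the high-code pairs. The next smallest adjusted p after Pfkp was 0.136 for Slc16a3. Slc2a1, Pfkp, Pgk1, Slc16a3 and G6pdx were higher with formate in both low-code pairs and lower in both high-code pairs, as were 4.67% of all tested genes. Within the low-code libraries alone, without a block, the members' median was -0.14, and within the high-code libraries -0.21, with 0 members called in either.

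Promoter sequences are shown for Hk2, Pgk1, Ldha and Slc16a3, because these genes hold matches to ACGTG, the core of the hypoxia response element that also lies within the E-box CACGTG, and because Pgk1, Ldha and Slc16a3 were higher in the high-code controls. HIF-1 and MYC, which bind such elements, are known activators of glycolytic genes. The 250 bases before the RefSeq start (GRCm38.p6) are printed 5′ to 3′ on the strand of the gene, with capitals for ACGTG or its reverse complement CACGT; where these overlap they form CACGTG.
Hk2 (chr6:82774455-82774704, minus strand): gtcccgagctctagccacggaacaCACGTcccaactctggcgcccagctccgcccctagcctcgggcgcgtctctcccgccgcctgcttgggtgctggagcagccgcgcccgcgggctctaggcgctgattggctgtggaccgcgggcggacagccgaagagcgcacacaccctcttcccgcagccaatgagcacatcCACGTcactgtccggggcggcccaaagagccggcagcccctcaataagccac
Pgk1 (chrX:106186850-106187099, plus strand): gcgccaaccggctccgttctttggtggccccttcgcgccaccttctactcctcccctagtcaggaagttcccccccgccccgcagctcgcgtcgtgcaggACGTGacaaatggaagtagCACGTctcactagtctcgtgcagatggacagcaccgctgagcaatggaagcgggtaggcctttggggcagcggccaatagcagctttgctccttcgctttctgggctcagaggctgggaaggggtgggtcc
Ldha (chr7:46845554-46845803, plus strand): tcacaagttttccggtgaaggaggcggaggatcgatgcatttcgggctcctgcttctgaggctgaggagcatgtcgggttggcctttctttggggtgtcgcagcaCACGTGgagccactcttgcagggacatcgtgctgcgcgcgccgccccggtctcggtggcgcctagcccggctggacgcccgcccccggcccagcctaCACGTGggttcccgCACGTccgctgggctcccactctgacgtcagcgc
Slc16a3 (chr11:120948817-120949066, plus strand): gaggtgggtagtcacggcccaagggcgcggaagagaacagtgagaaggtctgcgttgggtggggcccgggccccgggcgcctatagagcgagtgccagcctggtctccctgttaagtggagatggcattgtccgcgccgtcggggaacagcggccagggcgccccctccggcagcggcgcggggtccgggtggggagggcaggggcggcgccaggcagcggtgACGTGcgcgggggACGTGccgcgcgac

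The Ldha stretch holds CACGTG in 2 places and a further single ACGTG match, while Hk2, Pgk1 and Slc16a3 hold 2 separate matches each. Only windows with a match were printed. Another RefSeq window of Ldha (chr7:46846832-46847131) holds no match and is not shown. RefSeq windows of 300 bases (250 before to 50 after the start) were found for 33 of the 34 genes, all but Slc2a3, with 48 windows in all. ACGTG on either strand was present in at least 1 window of 17 of these 33 genes, against 29.5% of 9573 tested genes and 21.8% of 27025 genes with a window. CACGTG was present in 5 of 33, against 11.8% of the tested genes, and the GC box GGGCGG in 26 of 33, against 68.4%. Of the members that fell in the paired fit 6 of 15 with a window held ACGTG, and of the other members 11 of 18; of those more than 2-fold higher in the high-code controls it was 4 of 7. A match describes these letters in these windows and is no evidence of binding.

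The members are richer in GC than most genes, with a median transcript GC content of 53.78% against 50.46%, and 26 of the 33 lie above that median. With GC offsets in the paired fit 17 members fell, the 16 above and Slc16a1, and the members' median change was -0.15.

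The counts of genes around the pathway are to be read against the 7.52% of all tested genes that fell and the 5.35% that rose in the paired fit. These lists were drawn up with earlier results of these data known. Of 33 listed isozymes and side enzymes of glucose metabolism (32 in the table) 14 were tested, and 1 fell in the paired edgeR fit: Shpk, sedoheptulokinase, which feeds the pentose phosphate pathway, had a mean of 2.526 ± 0.5818 CPM over controls against 1.599 ± 0.3739 over formate libraries (SD, n = 4; edgeR log2 change -0.66, adjusted p = 0.0272). Of 21 HIF, MYC and transporter regulators 3 fell, 0 rose and 18 did not pass. Those that fell were Egln1 (the oxygen-sensing prolyl hydroxylase PHD2, -0.24, adjusted p = 0.00501), Max (the partner of MYC, -0.17) and Emb (embigin, a chaperone of monocarboxylate transporters, -0.14, adjusted p = 0.0415). Hif1a (0.08, paired edgeR adjusted p = 0.31) and Myc (-0.06, adjusted p = 0.433) were among the 18. Between high-code and low-code controls the log2 difference was 0.37 for Hif1a and -0.48 for Myc.

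The paired edgeR fit called 2 of 18 hypoxia-responsive genes outside glycolysis higher and 0 lower: Bnip3 (0.29, SE 0.06, adjusted p = 0.00762) and Bnip3l (0.24, SE 0.06, adjusted p = 0.0125), both mitophagy receptors. Their list median was -0.05. Vegfa was not called (0.48, SE 0.26, adjusted p = 0.34), but its interaction of formate with code set passed (edgeR adjusted p = 0.0353). Its pair changes were 1.125 and 0.759 in the low-code pairs and 0.017 and 0.152 in the high-code pairs. Among controls 14 of the 18 were more than 2-fold higher in codes 10 and 13 than in codes 1 and 7, with a median log2 difference of 1.60, and Bnip3 itself had 3.21.

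Of 16 tested genes of the hexosamine, glycogen, glycerol and serine branches 3 were called lower and 1 higher with the pairing. Pgm1, the phosphoglucomutase between glucose-6-phosphate and glycogen, had a mean of 108.1 ± 60.56 CPM over controls against 84.48 ± 45.34 over formate libraries (SD, n = 4; edgeR log2 change -0.34, SE 0.05, adjusted p = 0.00167) and was lower in 4 of 4 pairs. Pygb, a glycogen phosphorylase, had -0.23 (adjusted p = 0.00577) and Uap1, which makes UDP-N-acetylglucosamine, -0.22 (adjusted p = 0.0134). Gnpnat1, an earlier enzyme of the same hexosamine route, rose by 0.31 (SE 0.06, adjusted p = 0.0066). At the entry of pyruvate into mitochondria 2 of 12 tested genes fell, 0 rose and 10 did not pass: those that fell were Dlat (-0.25, paired edgeR adjusted p = 0.00512) and Pdha1 (-0.17, adjusted p = 0.0171), both of the pyruvate dehydrogenase complex. Of 10 genes of NADPH supply and NRF2 response 2 rose, 0 fell and 8 did not pass, the 2 being Nqo1 (0.87, paired edgeR adjusted p = 0.00426) and Srxn1 (0.55, adjusted p = 0.00448). Slc7a11, among the 8, had an interaction of formate with code set that passed (edgeR adjusted p = 0.00125). Its pair changes were 2.182 and 2.158 in the low-code pairs and -0.568 and 0.061 in the high-code pairs. G6pdx, Pgd, Tkt and Taldo1, which are known NRF2 targets as well, had changes of -0.03, -0.25, -0.23 and -0.22.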

How the data were processed

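The data are RNA-seq of 8 libraries, 4 per group. The authors deposited 1 table of estimated counts per gene, made per library from the reads, neither normalised nor pooled. Per the submitters' processing notes, kallisto, Trimmomatic and MultiQC were used, with mm10 and GRCm38 listed as builds. Their versions, the transcriptome release and the strand setting: not given in the sources used here. Of 35072 genes 8884 carry no symbol and were kept. Counts were rounded (56.7% of non-zero values were not whole) and analysed in R 4.3.3 by the robust quasi-likelihood test of edgeR 4.0.16, with TMM scaling and filterByExpr, which left 13299 genes. Calls had an adjusted p under 0.05 (Benjamini-Hochberg, all tested genes). CPM is TMM-normalised. Standard errors are the log2 change over the root of F; changes per pair use log2(CPM + 0.5).

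The planned fit has no pairing term. Neighbouring title codes served as a replicate block because deviations from the group means correlated in every pair (0.653, 0.369, 0.656 and 0.37 for codes 1, 7, 10 and 13 with the next code). The pairing comes from the codes and no label states it; a library of codes 7 and 8 correlated at 0.373 with one outside its pair, slightly above its neighbour. The scripts were tested on simulated data with known answers: both fits recovered the sizes put in, but the paired fit made false calls at more than the nominal rate. Limits set while testing, one on that rate and one on the share of large changes found at any level, were not met. The first was dropped, and the second was restated for well-expressed genes after the simulation's spread was corrected. Calls of the paired fit are therefore likely to include more false ones than their adjusted p states. Libraries of a group differed by a chi-square per degree of freedom of at least 22, more than counting noise alone, so each was counted as 1 sample; repeat preparations of one sample would exceed that noise too.

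Alternatives were DESeq2 1.42.0, other scalings and filters, GC offsets (lowess, span 0.3), and leaving out libraries, pairs or code sets. Lengths, GC content and coordinates are from GENCODE M21 (GRCm38), with the median length over coding transcripts. Pseudogene copies were found with minimap2 2.31. Values in every library are given for members called in either fit and for the highest member per role. Of other lists up to 4 called genes are named, with their changes, and also Hif1a, Myc, Vegfa and Slc7a11, which were not called. Vegfa and Slc7a11 are named for their interaction with code set. The members and lists were chosen with earlier results of these data known. Single measures were compared by exact permutation over 70 assignments, for which the smallest p is 0.0286. Antisense and overlapping genes are uncertain, since the strand setting is not given. Protein sequences are not used here.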

Additional observations from a re-analysis of the deposited data

How the results depend on the processing

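Without a block, the number of members called stayed at 0 under RLE, upper quartile and library-size scaling, no filter, DESeq2, either code set alone and without any 1 library. Over all genes, DESeq2 called 11 higher and 10 lower, where edgeR called 1 and 0; leaving out 1 library gave 0 to 1 higher, and each code set alone 0. The members' median of -0.183 ranged from -0.32 (without control 3) to -0.053 (without control 1), and was -0.296 without formate 1, -0.106 without formate 3 and -0.123 without formate 4.

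With the replicate block, members lower and higher numbered 16 and 1 (TMM, RLE and upper quartile), 11 and 1 (library size only), 18 and 1 (no filter), 16 and 0 (DESeq2), 17 and 1 (GC offsets), 7 and 0 (without codes 1 and 2), 12 and 1 (without 7 and 8), 12 and 0 (without 10 and 11) and 6 and 0 (without 13 and 14). Genes higher and lower over the whole table were 711 and 1000 with the block, 612 and 1126 with RLE, 832 and 736 with upper quartile, 1048 and 539 with library size only, 916 and 1361 with no filter, 492 and 1082 with DESeq2, and 444 and 983 with GC offsets; they were 160 and 177 without codes 1 and 2, 303 and 419 without 7 and 8, 556 and 815 without 10 and 11, and 224 and 278 without 13 and 14. The cause of these shifts was not tested. The versions that left out a pair also had fewer libraries.

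Direction changed only for members uncalled in that fit, and 1 that the block calls, Slc2a3. Unpaired, Pfkp had 0.001 (upper quartile) and 0.023 (library size only), where Ldhb had 0.004 and G6pdx 0.007. Within codes 1 to 8 the values were 0.036 (Slc2a1), 0.278 (Pfkp), 0.149 (Aldoc), 0.062 (Pfkfb4), 0.055 (Pgk1), 0.158 (Slc16a3) and 0.070 (G6pdx), and within codes 10 to 14 Ldhb had 0.162. With the block Pfkp had 0.055 (TMM), 0.048 (RLE), 0.076 (upper quartile), 0.091 (library size only), 0.046 (no filter), 0.049 (DESeq2), 0.060 (GC offsets), 0.130 (without 10 and 11) and 0.132 (without 13 and 14). Aldoc had 0.012 (upper quartile), 0.030 (library size only), 0.013 (DESeq2), 0.015 (GC offsets) and 0.232 (without 10 and 11), and Rpe -0.084 (GC offsets). Ldhb had 0.013 (library size only) and 0.080 (without 7 and 8), G6pdx 0.005 and 0.010 (library size only, without 13 and 14), Pgk1 0.015 (without 10 and 11), and Slc16a3 0.027 and 0.005 (without 10 and 11, without 13 and 14). Leaving out 1 library unpaired gave -0.36 to 0.098 for Slc2a1, -1.202 to 0.685 for Slc2a3, -0.385 to 0.127 for Pfkm, -0.229 to 0.286 for Pfkp, -0.402 to 0.026 for Aldoa, -1.238 to 1.294 for Aldoc, -0.476 to 0.252 for Pfkfb4, -0.373 to 0.277 for Pgk1, -0.315 to 0.031 for Ldha, -0.62 to 0.373 for Slc16a3 and -0.133 to 0.048 for Ldhb. The interaction with code set called 0 members under RLE and library-size scaling as well. Counting error weighs most on Hk3, Eno2, Pfkfb2 and Pfkfb4, and on Aldoc in the low-code libraries (51 counts in control 3).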
